A study of Mus musculus with 2 samples.

Results

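The cytosolic ribosomal protein genes encode the protein components of the ribosome, the particle that translates mRNA. Members were chosen by symbol alone. They were the rows named Rpl or Rps followed by a number, with an optional a, x, y or l and further digits, together with Rpsa, Rplp0, Rplp1, Rplp2 and Fau, and without the kinase genes named Rps6k. This gave 85 of the 23284 genes listed, 51 of the large and 34 of the small subunit, and the rule uses no measured value. The libraries came from small intestinal epithelial cells of mice, 1 library labelled miR-215+/+ (wild-type) and 1 labelled miR-215-/- (knockout of a microRNA abundant in gut epithelium), with no other treatment, time or age named in the labels. Each genotype has 1 library, so no difference has a replicate check and p-values are left out. Where 2 values of a gene stand together, the first is from the wild-type and the second from the knockout library; "higher" and "lower" refer to the knockout value as deposited. In bulk RNA, fewer cells of a type and less RNA per cell cannot be told apart.

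A ribosome carries a single copy of nearly every one of these proteins, and the stalk proteins in more, so their genes are transcribed at a similar high level in most cells. Their mRNAs are known for a terminal oligopyrimidine (TOP) start, a run of C and T bases at the first transcribed position, through which the growth kinase mTORC1 controls their translation. The small intestinal epithelium renews itself from crypt cells and makes much secreted and membrane protein, so it holds these mRNAs in quantity. The family is also known for its many processed copies, made when a spliced mRNA was copied back into the genome.

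The copies matter for reading the values, so the sequences that show this are given first. Near-identical copies were taken as other annotated genes with at least 95% identity over at least 90% of a member's coding sequence. Of the 85 members, 78 had such a copy in the mouse annotation, 561 copies in all, led by Rpl21 with 56, Rpl7a with 31 and Rpl29 with 25. The deposited tables listed only 16 of these copies, for 15 members. The clearest case was Rps27, a small subunit protein with a zinc finger, on chromosome 3 at 90212522 to 90213651 (GRCm38, minus strand). A retrotransposed copy, listed as Gm9846 and named Rps27rt in the annotation, lies on chromosome 9 at 114982366 to 114982739. Over the 255 coding bases the copy and Rps27 had 0 differences, and their transcripts shared an unbroken stretch of 341 bases out of 345 and 374. The coding sequence that both share, and that of the paralog Rps27l (chromosome 9, 66946086 to 66949516), with capitals at the 61 bases where Rps27l differs, read as follows.
Rps27 and Gm9846: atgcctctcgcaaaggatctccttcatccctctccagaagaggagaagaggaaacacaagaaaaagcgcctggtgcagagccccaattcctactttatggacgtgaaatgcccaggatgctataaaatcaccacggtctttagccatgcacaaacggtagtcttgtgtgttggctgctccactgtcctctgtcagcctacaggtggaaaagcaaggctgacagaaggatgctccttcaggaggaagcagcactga
Rps27l: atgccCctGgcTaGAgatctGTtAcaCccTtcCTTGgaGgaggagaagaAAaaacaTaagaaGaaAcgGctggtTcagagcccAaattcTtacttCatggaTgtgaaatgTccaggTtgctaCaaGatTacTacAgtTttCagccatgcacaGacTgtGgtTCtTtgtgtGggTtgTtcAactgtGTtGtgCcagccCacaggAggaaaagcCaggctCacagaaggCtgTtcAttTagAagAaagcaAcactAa

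The copy of Rps27 cannot be told from its parent by these coding letters, whereas Rps27l, at 76.1% identity and with no identical stretch over 11 bases, can. Similar pairs were Rpl26 with Gm15772 and Rpl30 with Gm12191, both annotated as processed pseudogenes. Rpl30 and Gm12191 differed at 1 of 348 coding bases, G96A, counted from 1 at the start codon with the base of Rpl30 first. Rpl26 and Gm15772 differed at 2 of 438, C177T and T288C. The stretches around these bases, with the differing bases in capitals, show how little separates a gene from its copy.
Rpl30, coding bases 76 to 116: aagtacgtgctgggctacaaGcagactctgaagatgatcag
Gm12191: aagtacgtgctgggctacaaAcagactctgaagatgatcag
Rpl26, coding bases 157 to 308: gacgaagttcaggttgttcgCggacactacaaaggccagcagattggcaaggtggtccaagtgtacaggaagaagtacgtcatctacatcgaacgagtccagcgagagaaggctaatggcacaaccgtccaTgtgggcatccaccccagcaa
Gm15772: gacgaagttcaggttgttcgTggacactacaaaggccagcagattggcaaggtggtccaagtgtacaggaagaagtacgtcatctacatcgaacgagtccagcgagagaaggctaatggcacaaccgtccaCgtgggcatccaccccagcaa

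Levels are in FPKM, a fragment count scaled for transcript length and library depth, so they can be compared between genes. The members summed to 41575 and 39225 FPKM. That was 5.54% and 5.74% of all FPKM, a ratio of shares of 1.04. Of the 85 members, 75 were at 100 FPKM or more in both libraries. The comparison kept genes that reached 1 FPKM in either library, 11504 in all and 81 members. The members left out were Rpl3l, Rpl10l and Rpl26, listed at 0 in both libraries, and Rpl39l, which rested on 1 and 0 fragments. The values of the kept members rested on an estimated 113 fragments or more over both libraries, with a median of 3878.

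Most ribosomal protein genes were at nearly the same level in both libraries. The log2 ratio was taken as log2(knockout + 1) minus log2(wild-type + 1), and a gene was called apart at a size of 1, which is 2-fold. Among all 11504 kept genes, 389 were apart in either direction, 3.38%, with 1.34% higher and 2.04% lower. Among the 81 kept members, 1 was apart, Rps27, and 74 lay within 1.2-fold, 91.4%. That share was 56.5% over all kept genes and 49.7% over other genes of 100 to 2000 FPKM. The median log2 ratio of the members was -0.07, beside -0.05 over all kept genes. Of all kept genes 56.0% were below 0, and of the other genes of 100 to 2000 FPKM 787 of 1012. Of the members, 60 were below 0 and 21 above. Scaling turned these signs: after the knockout values were raised to equal sums, the members' median was 0.07, that of all genes also 0.07, and 60 members were above 0.

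The members lay closer together than other genes. Their middle 50% spanned 0.14 on the log2 scale, against 0.44 for all kept genes. Other genes of 100 to 2000 FPKM, the range of most members, spanned 0.39 and had a median of -0.20. In that range 22 other genes were 2-fold higher and 35 were 2-fold lower. The members share short transcripts, with a median length of 614 nt against 2111 nt for all kept genes by the shortest coding transcripts. Kept genes of 500 to 700 nt had a median log2 ratio of -0.13 and the 22 members of that length -0.05, while genes of 700 to 1000 nt had -0.14 and their 21 members -0.03. In the other bins the members were level with genes of their length: at 200 to 500 nt both all genes and the 26 members had -0.09, and at 1000 to 2000 nt all genes had -0.10 and the 12 members -0.11.

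**Figure D1:**
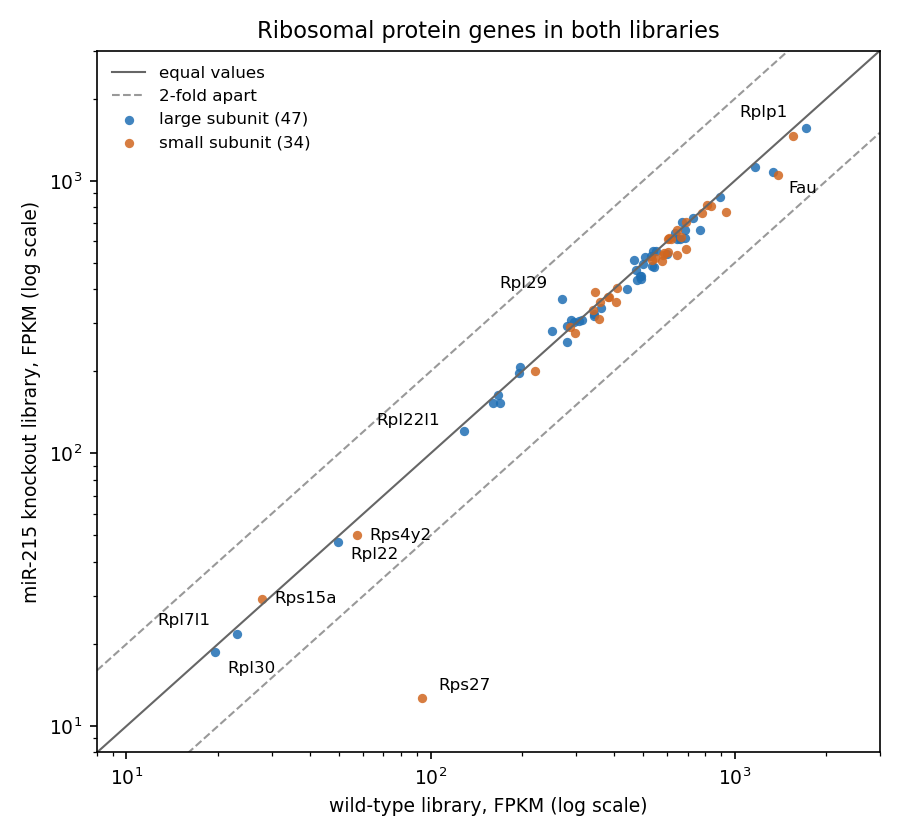
FPKM of the 81 kept ribosomal protein genes in the wild-type library (x axis, log scale) and the knockout library (y axis, log scale), blue for the large and orange for the small subunit, with lines at equal values and at 2-fold. Rps27 alone falls outside the 2-fold lines, and 75 members sit at 100 FPKM or more in both libraries.

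The large and small subunits were compared next. The 47 kept large subunit genes had a median log2 ratio of -0.0646 and the 34 small subunit genes -0.0669, a difference of 0.0024. The spread was also alike once Rps27 was set aside, with an SD over genes of 0.120 in the large subunit (47 genes) and 0.119 in the small subunit (33 genes). The sums gave 22686 and 21694 FPKM for the large subunit and 18888 and 17532 for the small subunit, folds of 0.956 and 0.928.

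The most abundant large subunit genes were Rplp1, Rpl41 and Rpl38. Rplp1, a stalk protein, was at 1712 and 1569 FPKM. Rpl41, which encodes the smallest ribosomal protein, was at 1338 and 1073 FPKM, and Rpl38, known from patterning defects in mutant mice, at 1168 and 1126. Of these 3, Rpl41 was the farthest from equal values. The most abundant small subunit genes were Rps29 (1552 and 1456 FPKM), Fau (1387 and 1054 FPKM) and Rps20 (934 and 771 FPKM). Each of these 6 genes was lower in the knockout library as deposited, and with equal sums Rpl38, Rplp1 and Rps29 had log2 ratios of 0.08, 0.01 and 0.04.

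The stalk of the large subunit recruits the elongation factors. Its base, Rplp0, was at 659 and 611 FPKM, and its arms were Rplp1, given above, and Rplp2, at 635 and 644 FPKM. The fold of Rplp0 was 0.927 with a 95% counting interval of 0.894 to 0.955, that of Rplp1 was 0.916 (0.877 to 0.951), and that of Rplp2 was 1.01 (0.937 to 1.09). These intervals rest on estimated fragment numbers, so they hold counting error and nothing of the spread between mice. With equal sums the ratios of Rplp0 and Rplp1 were no longer below 0. Rpl5 and Rpl11 bind the small ribosomal RNA of the large subunit, and when ribosome assembly fails they bind MDM2 and release p53. Rpl5 was at 195 and 197 FPKM and Rpl11 at 532 and 529.7 FPKM, and the intervals of both folds, 0.912 to 1.11 and 0.946 to 1.04, included 1.

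The ubiquitin-like fusion genes differed from each other. Rps27a, made as a fusion with ubiquitin, was at 362 and 360.5 FPKM, with a fold interval of 0.925 to 1.07. Fau, in which the small subunit protein is fused to the ubiquitin-like protein FUBI, had a fold of 0.760 (0.715 to 0.805). Fau lies on chromosome 19 at 6057844 to 6059524, and it had the lowest log2 ratio after Rps27, -0.40. Its 1 annotated near-identical copy, Gm9843, matched the whole coding sequence and had no row. The part of that copy in the value of Fau was not tested.

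Rps27 was the 1 member past 2-fold. Its own row read 93.7 and 12.6 FPKM, about 113 and 16 fragments. The FPKM ratio was 7.42-fold lower in the knockout library, with a counting interval of 4.32 to 13.3, and the log2 ratio was -2.80. The row of the copy with the same coding sequence, Gm9846, read 1654 and 1367 FPKM, which is 94.6% and 99.1% of the sum of both rows. Summed over both rows the values were 1747 and 1379.5 FPKM, a fold of 0.790 (0.754 to 0.842) and a log2 ratio of -0.34. The sum was thus at the level of the most abundant members, and its ratio lay between those of Fau and Rpl41. Here and below, the fold of a sum was taken from summed FPKM, and its interval from summed fragment numbers. Such an interval need not centre on its fold. The assignment of fragments that match both places, not given in the sources used here, was not tested for its part in the value of Rps27.

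The rows of Rpl26 and Rpl30 were also low beside a high row of a listed copy. Rpl26, a large subunit protein, was listed at 0 in both libraries, while its copy Gm15772 (chromosome 5, 3236431 to 3236868) read 641 and 583 FPKM. Rpl30, which also binds its own pre-mRNA, was at 19.6 and 18.7 FPKM, and its copy Gm12191 (chromosome 11, 49678710 to 49679057) at 626 and 584 FPKM. The summed folds were 0.910 (0.842 to 0.978) and 0.934 (0.849 to 1.02). So both pairs, read together, sat at the usual level of the family. Rpl34 was at 506 and 528 FPKM and its copy Rpl34-ps1 at 184 and 109.5 FPKM. The row of Rpl34 alone had a fold of 1.04 (0.965 to 1.12). The sum, 690.4 and 637 FPKM, had a fold of 0.923 (0.901 to 1.04), and both intervals included 1. Rps15a was low too, at 27.9 and 29.2 FPKM, with its copy Rps15a-ps6 at 9.33 and 2.73 FPKM. With each member's listed copies added, 0 of 82 members were 2-fold apart.

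**Figure D2:**
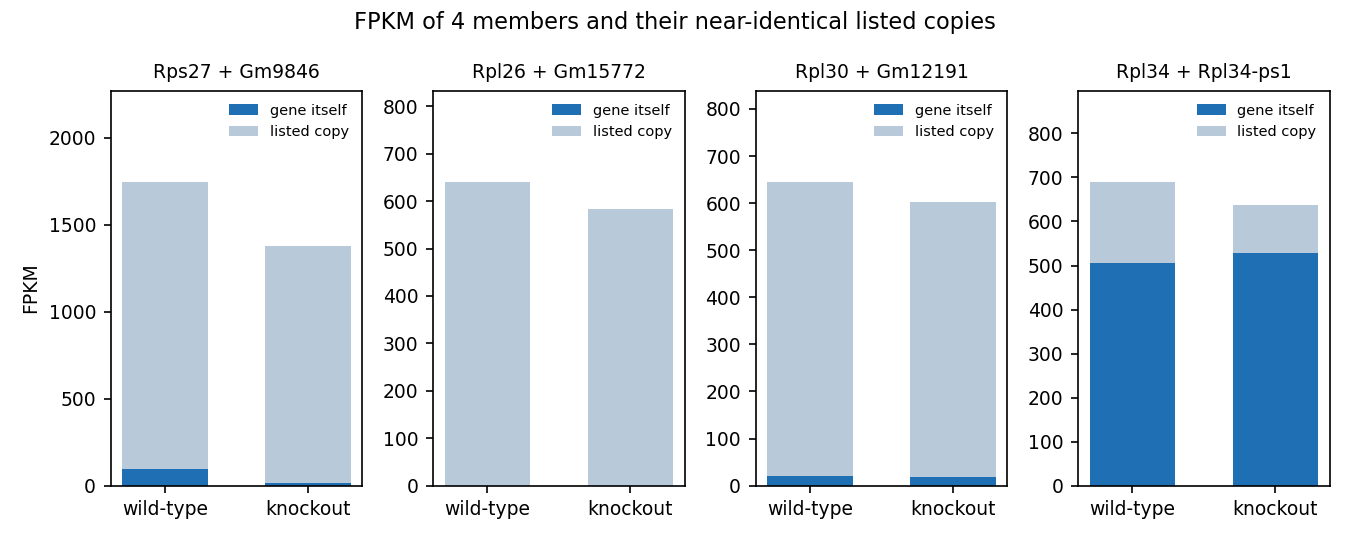
FPKM of Rps27, Rpl26, Rpl30 and Rpl34 (dark) with their near-identical listed copy stacked on top (light), 1 bar per library, each panel on its own axis from 0. For Rps27, Rpl26 and Rpl30 nearly all of the summed value stands in the row of the copy, from 94.6% up, and for Rpl34 26.7% and 17.2%.

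The highest log2 ratio belonged to Rpl29, a basic large subunit protein that binds heparin (chromosome 9, 106429454 to 106431568). It was at 270.4 and 370.04 FPKM, a fold of 1.37 (1.26 to 1.48) and a log2 ratio of 0.45. With its only listed copy, Gm8580, at 7.38 and 0.245 FPKM, added, the fold was 1.33 (1.23 to 1.45). Of the 25 annotated copies of Rpl29, 24 had no row of their own in the tables used here. The next highest were Rps13 (347 and 392 FPKM, fold 1.13), Rpl14 (250.03 and 282 FPKM, fold 1.13), Rpl13 (468 and 510.5 FPKM, fold 1.09), Rpl3 (291 and 309 FPKM, fold 1.06) and Rpl23a (669 and 707 FPKM, fold 1.06). Rpl3 stands at the peptidyl transferase centre, and Rpl23a lies near the exit of the peptide tunnel. The intervals of Rpl29, Rps13, Rpl14, Rpl13 and Rpl3 lay above 1, and that of Rpl23a, 0.995 to 1.12, included it.

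The lowest, after Rps27 and Fau, were Rpl41, Rps14, Rps20 and Rps10. Rpl41 had a fold of 0.802 (0.758 to 0.844), and its 4 annotated near-identical copies had no row. Rps14, whose human counterpart is lost in a form of myelodysplastic syndrome, was at 694 and 559.9 FPKM, a fold of 0.807 (0.760 to 0.852). Rps20 had a fold of 0.826 (0.779 to 0.870), and Rps10 was at 644 and 537 FPKM, a fold of 0.833 (0.776 to 0.889). These genes kept ratios below 0 with equal sums, where Fau was at -0.26, Rpl41 at -0.18 and Rps10 at -0.13. Over the 81 kept members, 32 had a counting interval below 1 and 5 above 1, which is 39.5% and 6.17%. Among the 11387 kept genes with a known length the shares were 27.5% below and 17.1% above, and among the 1003 other genes of 100 to 2000 FPKM, whose intervals are narrow too, 67.0% and 16.9%. Set against the median fold of all kept genes, 0.967, 20 members were below and 11 above, 24.7% and 13.6%, beside 23.7% and 20.1% of all genes with a length. For the 1003 other genes of 100 to 2000 FPKM these shares were 60.3% and 19.5%.

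**Figure D3:**
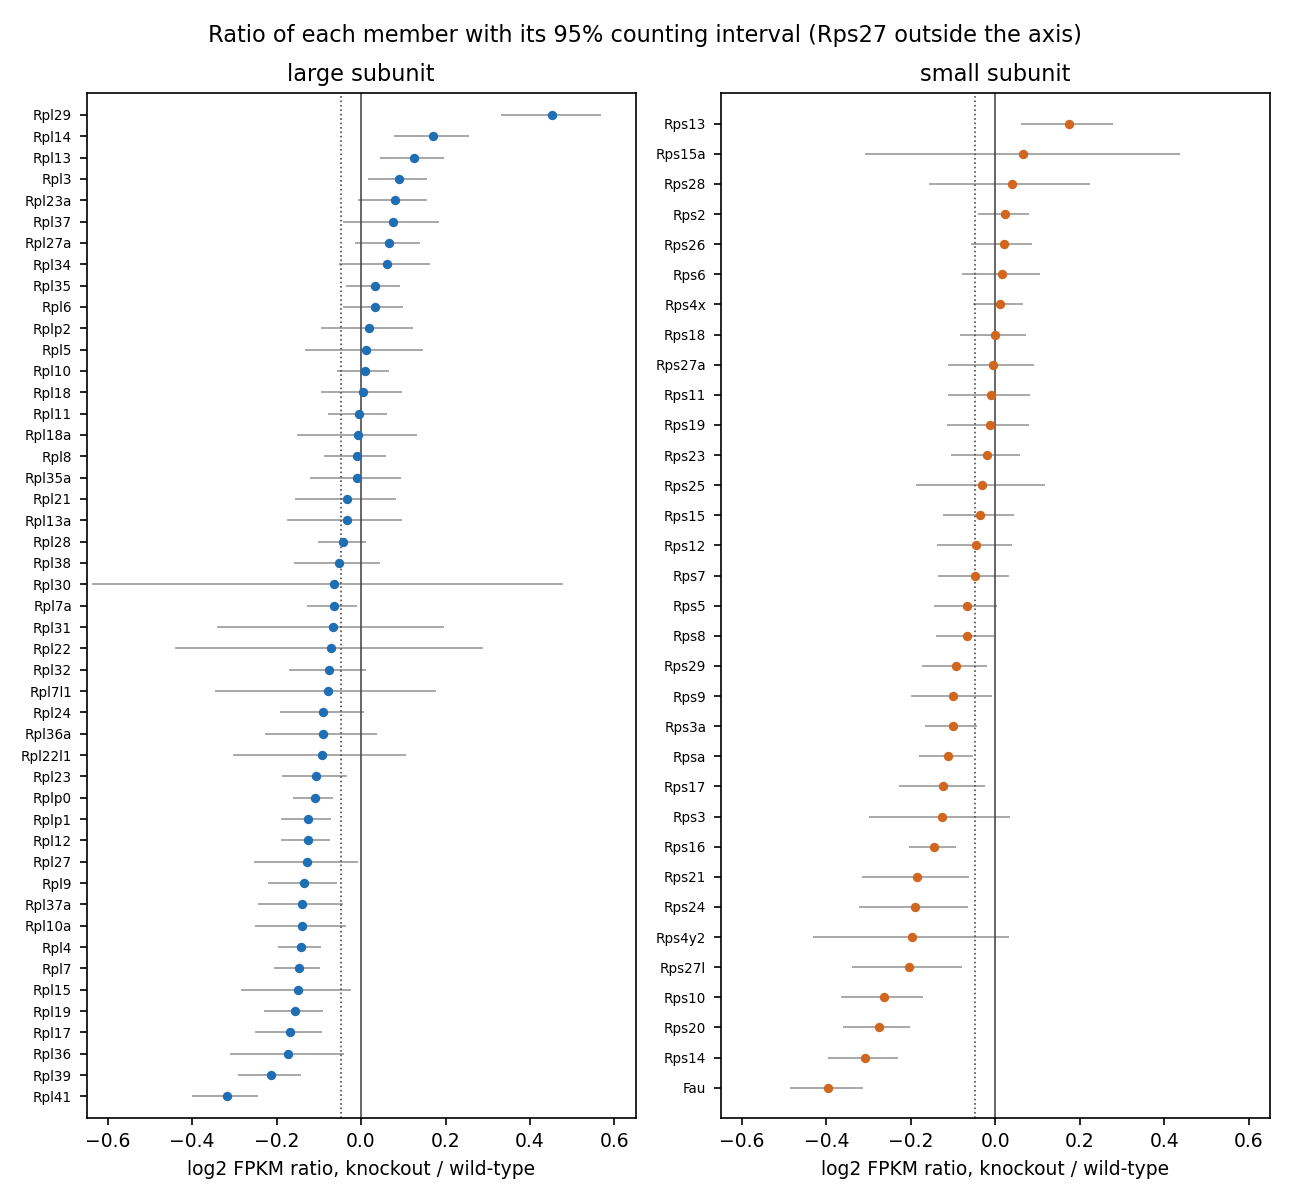
Log2 FPKM ratio (knockout over wild-type, no value added) of 80 kept members, large subunit left and small subunit right, ordered by ratio; bars are 95% counting intervals, the solid line marks 0 and the dotted line the median of all kept genes, -0.05. Rpl29 stands apart at the top and Fau at the bottom, and Rps27 is outside the axis.

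The paralogs and paralog-like copies of standard ribosomal proteins were read beside their parents. Rps27l, a p53 target, was at 359 and 312 FPKM, a fold of 0.867 (0.791 to 0.947). It exceeded the row of Rps27 in both libraries and was below the sum of Rps27 and Gm9846 in both. Rpl22l1, which is known to rise when Rpl22 is lost, was at 129 and 121 FPKM and Rpl22 at 49.5 and 47.1 FPKM. The row of the paralog was thus the higher one, and both fold intervals included 1. Rpl22 had 1 annotated near-identical copy without a row, Gm12005, whose part in the low row of Rpl22 was not tested. Rpl7l1, at 23.0 and 21.8 FPKM, was far below Rpl7, at 598 and 539.8 FPKM. Rps4y2, on chromosome 6 and annotated as a transcribed processed pseudogene, was at 57.4 and 50.01 FPKM beside 604 and 609 FPKM for the X-linked Rps4x. Rpl36al, outside the symbol rule, was at 296 and 309.6 FPKM, close to its X-linked relative Rpl36a at 345 and 324 FPKM. The copies known from testis and muscle were absent or near it: Rpl3l and Rpl10l were listed at 0 in both libraries, Rpl39l rested on 1 fragment, and their parents Rpl3, Rpl10 (728 and 733 FPKM) and Rpl39 (768 and 662 FPKM) were abundant. Rps3a, at 584 and 545 FPKM, had 6 annotated copies and 0 listed ones.

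The start sites of the members carried the TOP feature more often than those of other genes. A run of at least 7 C or T bases on the transcribed strand, reaching within 5 bases of the annotated start, was found for 30 of the 64 members with a promoter sequence in RefSeq (GRCm38.p6), 46.9%, and for 16.4% of all 27025 genes with one. Annotated starts can be off by some bases, so a missing run says only that these letters are not in this window. Rpl41 at the low end and Rps13 and Rpl13 at the high end had no run in this window. Examples picked among members with a run show 30 bases centred on the start, with the run in capitals. They are a member at the low end, Rps27 and a member at the high end.
Fau (chr19:6057932-6057961, plus strand): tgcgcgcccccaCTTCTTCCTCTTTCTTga
Rps27 (chr3:90213634-90213663, minus strand): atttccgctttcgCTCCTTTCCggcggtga
Rpl14 (chr9:120571502-120571531, plus strand): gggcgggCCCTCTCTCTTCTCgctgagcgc
The ratios were alike with and without the run: the 29 kept members with a run had a median log2 ratio of -0.06 and the 31 with a promoter sequence and no run -0.05.

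Other genes of translation were compared by lists chosen with earlier results of these data known. Elongation factors and other genes with TOP mRNAs had a median log2 ratio of -0.13, with 14 of 18 below 0 and 0 apart by 2-fold; with equal sums the median was 0.0047. The elongation factor gene Eef1a1, the most abundant of them, was at 2607 and 1991 FPKM, a fold of 0.764 (0.750 to 0.773). Eif4b, an mTOR-regulated cofactor of the helicase that opens mRNA leaders, was at 122 and 86.6 FPKM, and Btf3, a subunit of the nascent chain complex at the tunnel exit, at 366.5 and 282 FPKM. These 3 genes were lower by more than the median member of the ribosomal protein family. Of the 35 initiation factor genes, 14 were above 0 and 0 were apart by 2-fold, with a median of -0.05, and the largest difference was that of the helicase gene Eif4a2, at 197 and 123 FPKM. Eif2b2, of the exchange factor for eIF2, was at 28.1 and 21.1 FPKM, and Eif1, the most abundant initiation factor gene, at 392 and 363 FPKM.

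Genes that build the ribosome, rather than form it, read differently. Of 60 kept ribosome assembly genes, 48 were above 0 and 12 below, with a median of 0.22 and 0 apart by 2-fold, while the members' median was -0.07. Over other pseudocounts, minimum levels and scalings the assembly median stayed between 0.14 and 0.33. Noc2l, of a complex that carries pre-large subunits, was at 7.16 and 13.1 FPKM, a fold of 1.83 (1.52 to 2.21). Nop56, a core protein of the methylation guide particles, was at 12.4 and 21.6 FPKM, and Noc4l at 5.21 and 8.58 FPKM. The most abundant assembly gene, the histone and ribosome chaperone Npm1, was at 126 and 122 FPKM. Counting intervals lay above 1 for 23 of these genes and below 1 for 1 gene, beside the 17.1% and 27.5% of all genes given above. Of all 11504 kept genes, 44.0% were above 0. The assembly genes were far less abundant than the members, summing to 768 and 822 FPKM. They were not set against other genes of like level or length. Kept genes of 2000 nt or more had a median log2 ratio of -0.0003. RNA polymerase I genes, which transcribe ribosomal RNA, had a median of 0.08 with 9 of 14 above 0, and a median of -0.11 when limited to genes that reached 5 FPKM. Cd3eap was at 1.06 and 2.23 FPKM, Taf1a at 1.88 and 3.26, Polr1a at 1.84 and 2.56, and Polr1d, the most abundant, at 147 and 123 FPKM.

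Proliferation markers were higher in the same library as the assembly genes: 11 of 11 were above 0 with a median of 0.53. They summed to 161 and 198 FPKM, and 0 of them were listed at 0. With 1 added to each FPKM, 0 were apart by 2-fold. Counting intervals lay above 1 for 6 of the 11 and included 1 for the others, among them Pcna, the most abundant, at 80.5 and 85.3 FPKM. Mcm3 was at 5.36 and 11.2 FPKM, a fold of 2.09 (1.71 to 2.56) without the added 1, which is past 2-fold. Mki67 was at 5.603 and 9.45 FPKM, and Mcm4 at 4.34 and 7.71 FPKM. Fibroblast and smooth muscle markers were above 0 in 10 of 10 kept, summing to 18.4 and 54.8 FPKM, with 0 listed at 0. Macrophage and dendritic cell markers were above 0 in 7 of 8, summing to 71.4 and 91.7 FPKM, with a median of 0.53 and 6 intervals above 1. Endothelial markers were above 0 in 2 of 2 kept of 5, summing to 1.38 and 5.98 FPKM, and T cell markers in 4 of 9, summing to 437 and 451 FPKM. All 6 enterocyte markers were below 0 as deposited (log2 ratios of -0.51 to -0.04), summing to 43601 and 38474 FPKM. The 5 crypt stem markers were mixed, with 3 above 0 and 2 below. The interval of Olfm4 lay above 1, and those of Lgr5 and Axin2 lay below 1. Paneth markers were above 0 in 2 of 3, goblet markers in 1 of 3 and B and plasma cell markers in 1 of 5. The 1 red blood cell marker kept, Hba-a1, was at 28.6 and 5.33 FPKM. The part of these cell types in the values of the ribosomal and assembly genes was not tested. Of the 7 epithelial markers, all were detected in both libraries, 3 were above 0 and 4 below. They were not level with each other: Cdx2 was at 124 and 64.8 FPKM, Krt20 at 1721 and 2287 FPKM and Krt8 at 2456 and 2892 FPKM, while Epcam was at 1539 and 1400.2 FPKM and Vil1 at 1600.1 and 1566 FPKM.

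**Figure D4:**
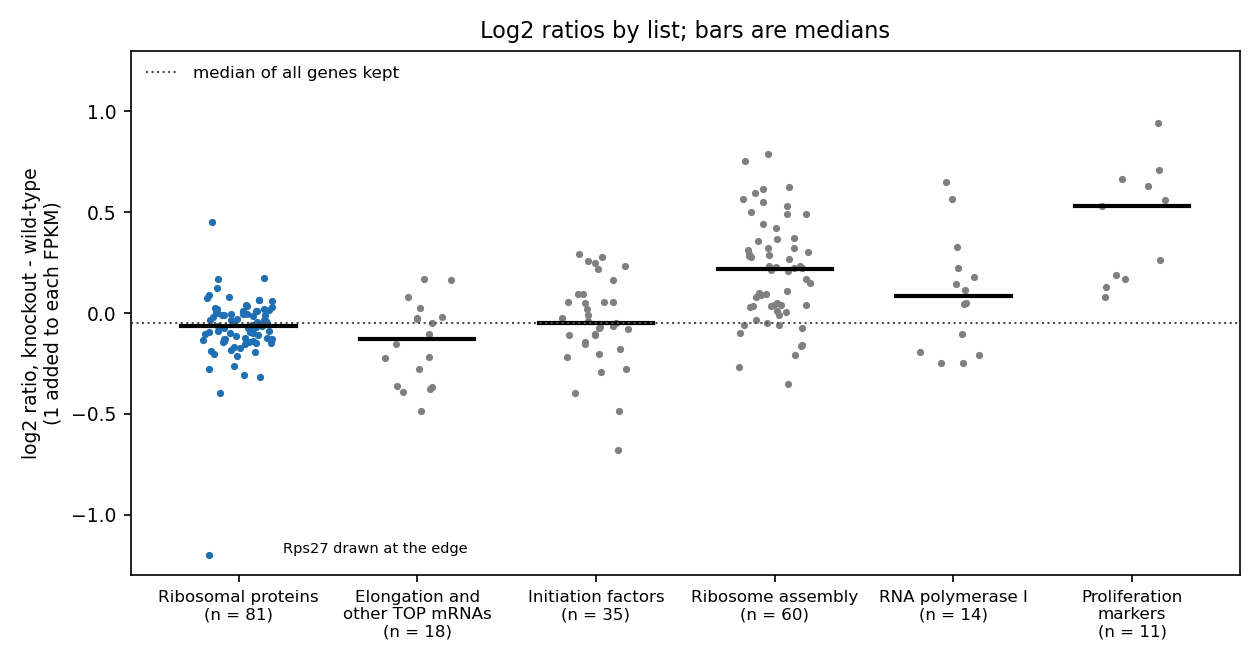
Log2 ratio (1 added to each FPKM) of each kept gene, 1 point per gene, for the ribosomal protein genes (blue) and 5 other lists (grey), with bars at the medians and a dotted line at the median of all kept genes. The ribosomal proteins form the narrowest column around -0.07, the assembly genes centre on 0.22 and the proliferation markers on 0.53; Rps27, at -2.80, is drawn at the edge.

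Regulators and sensors of ribosome supply went both ways. Of 22 genes of the mTORC1 and TOP pathway, 11 were above and 11 below 0, with a median of -0.08. The 1 gene past 2-fold was Ddit4, a stress-induced inhibitor of mTORC1, at 13.6 and 53.2 FPKM. Sesn3, another inhibitor, was at 5.79 and 3.496 FPKM, Myc, a transcription factor that drives ribosome production, at 5.06 and 7.31, and its partner Max at 196 and 156. The 14 kept p53 targets split evenly, 7 above and 7 below 0, with a median of -0.08. Perp was at 175 and 109 FPKM, Gtse1 at 1.16 and 2.48, Polk at 1.48 and 2.46, and Rps27l was the most abundant. Of 10 kept host genes of small nucleolar RNAs, which guide the modification of ribosomal RNA, 6 were above 0. Snhg3 was at 11.7 and 22.4 FPKM, Snhg8 at 4.80 and 7.71, Snhg1 at 29.9 and 32.1, and Snhg9 at 11.7 FPKM and listed at 0, which in the wild-type library was about 6 fragments.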

How the data were processed

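Messenger RNA of 1 wild-type and 1 miR-215 knockout library of small intestinal epithelial cells was sequenced; per the labels' protocols, RNeasy Mini columns and TruSeq stranded mRNA chemistry were used. The authors deposited 1 FPKM value per gene and library. Per the submitters' processing notes, the build was mm10 and the tools were Cuffnorm 2.2.1, SAMtools 0.1.19, Bowtie2 2.2.3 and TopHat2 2.0.13. Settings, annotation, strand use and the treatment of fragments matching several places were not given in the sources used here. Because the unit is named nowhere, FPKM was inferred from the tool, the table layout and the values.

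The files hold no counts, so the worth of a fragment was estimated from the steps of low values. The most common ratio of the libraries among low genes was 0.963, and it was the same for transcripts of 400 to 1000, 1000 to 2000 and 2000 to 5000 nt. One fragment over 1 kb of effective length (length minus 205 nt) was worth 0.103 (wild-type) and 0.0995 FPKM (knockout), with 65.2% and 64.6% of low values within 2% of whole fragments. Fragment numbers used the shortest coding transcript of the GENCODE M21 basic set (GRCm38, the assembly of mm10), or, for members whose only such transcript exceeds 2000 nt, the shortest annotated one. For some members that transcript was shorter than the coding sequence used to seek copies. Rps3 was taken at 489 nt beside 732 coding bases, Rpl5 at 634 beside 894 and Fau at 392 beside 402. Fragment numbers of such members are too low, and their intervals too wide, wherever the longer transcript is the one expressed. The counts of intervals above or below 1 share this limit. Folds carry exact 95% Clopper-Pearson intervals, for counting error only; the floor was 3 fragments. The method was tested on simulated data of genes over 400 nt, drawn with counting error alone. That test does not cover members taken as shorter, among them Rps27 (329 nt) and Fau (392 nt), or fragments that match several places.

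Of the 23284 symbols, 22826 matched GENCODE, and all 85 members did. Copies were sought with BLAST+ 2.17.0. The named members were those past 2-fold, the 6 highest and 6 lowest, the 3 most abundant of each subunit, stalk, Rpl5 and Rpl11, fusion and paralog genes, and of other lists the 3 of largest log2 ratio and the most abundant; Rpl26, Rpl30, Rpl34 and Rps15a were added after their values were seen. Members and lists were chosen with earlier results of these data known. Alternatives changed the pseudocount, the minimum FPKM, the scaling and the length trend. Python 3.11.15 with pandas 2.3.3 was used.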

Additional observations from a re-analysis of the deposited data

How the results depend on the processing

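With the knockout values raised to equal sums (factor 1.10) the median log2 ratio of the ribosomal protein genes was 0.067 and that of the elongation and TOP list 0.0047; with equal upper quartiles (factor 1.09) the former was 0.051. The sign of the members' median is thus set by the scaling, while its distance from the median of all genes stayed between -0.065 and 0.057 over the settings tried. Summing each member with its listed copies, an alternative chosen after seeing the data, left 0 members 2-fold apart and put the ratio of summed shares at 1.03; without rows under 200 nt, which held 2.90% and 6.30% of all FPKM, it was 1.07. The difference between the subunit medians stayed between -0.021 and 0.0071. Rps27 lay between -2.88 and -2.48 in the settings that read its own row and was at -0.34 summed with its copy. The number of genes 2-fold apart among all genes was 700 with a pseudocount of 0.1 and 180 with 5. For single named genes, shifts under other settings were set against the distance from the middle of the log2 counting interval to its end. By this measure 387 values moved by no more than that distance and 82 by more. Snhg9, whose interval has a lower end of 0, could not count as moved. Medians, counts and shares of gene sets were judged by limits of a like kind. Of these, 93 values stayed within their limit and 6 moved by more. No paired analysis was possible because each genotype has 1 library, and no library could be left out for the same reason.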
